A study of Mus musculus with 16 samples.

Results

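The complement system was examined as 36 genes in the livers of wild-type C57BL/6 mice dosed with emodin, a plant anthraquinone, and of mice given its carrier. The members were chosen by name as genes of the classical, lectin, alternative and terminal routes, their regulators and their receptors. Earlier results of these data were known when they were chosen. Of the 36, 35 had a row among the 27446 entries of the table. C4a had none and is not analysed here. Of the 35, 34 held enough counts to be tested, among 14308 entries tested in all. The emodin group held 8 livers of wild-type mice given 400 mg/kg of emodin by the intragastric route for 3 weeks in 0.5% sodium carboxymethyl cellulose. The vehicle group held 8 livers of wild-type mice given the 0.5% carrier alone. The age and sex of the mice are not given in the labels used here. The labels also do not say that each library came from a separate animal. The p-values therefore weigh the difference between groups against the spread between libraries, which may not be that between animals.

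Complement is a cascade of plasma proteins that tags microbes and damaged cells, draws in leukocytes and can pierce membranes. The classical route starts with C1q on antibody, the lectin route with sugar-binding lectins, and the alternative route with C3 itself; all of them meet at C3 and end in the membrane attack complex. Hepatocytes make most of the circulating components and several are acute phase proteins, while C1q and properdin come mainly from macrophages and other leukocytes. Regulators in plasma and on cell membranes keep the cascade off the host's own cells.

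In all, 10 complement genes were called higher in emodin livers, by 1.14-fold to 1.58-fold, and 0 were called lower. They were C2 and C4b of the classical route, Masp1 of the lectin route, Cfb of the alternative route, Hc, C6, C8a and C8b of the terminal route, and the regulators Serping1 and Clu. The 3 C1q chains, the lectins Mbl1, Mbl2 and Fcna, the C1 proteases, C8g and the receptors C3ar1 and C5ar1 did not pass the test. Values are CPM, the counts of a gene per 1e6 counts of its library after TMM scaling; fold changes are emodin over vehicle with a standard error (SE), and a gene was called at an adjusted p under 0.05 in edgeR's quasi-likelihood test with Benjamini-Hochberg adjustment over all entries.

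In that test 10 of the 34 members (29.4%) were called higher and 0 lower. An unadjusted p under 0.05 was seen for 13 of the 34 members and for 4249 of the 14308 entries tested. Of all entries 13.2% were called, 7.70% higher and 5.47% lower. DESeq2 called 11 members higher and 0 lower, and 17.7% of all entries, 9.88% higher and 7.82% lower. The median log2 fold change was 0.21 over the 34 members and 0.01 over all entries. The members were chosen with earlier results of these data known, so these shares and medians are a description, with no test of the list. Of the 10 calls, 6 (C2, C4b, C8a, C8b, Serping1 and Clu) were kept in each of 23 other settings, which were 7 alternatives of processing and the 16 fits with 1 liver left out.

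The 10 genes are all protein-coding in GENCODE M21 on GRCm38. On chromosome 17 the annotation places C2 at chr17:34862604-34898265 (minus strand), Cfb at chr17:34856374-34862518 (minus strand) and C4b at chr17:34728380-34743882 (minus strand). On chromosome 4 it places C8a at chr4:104815679-104876398 (minus strand) and C8b at chr4:104766317-104804548 (plus strand). The others are Masp1 at chr16:23449417-23520815 (minus strand), Hc at chr2:34983331-35061438 (minus strand), C6 at chr15:4727175-4814967 (plus strand), Serping1 at chr2:84765387-84775444 (minus strand) and Clu at chr14:65968483-65981547 (plus strand).

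**Figure D1:**
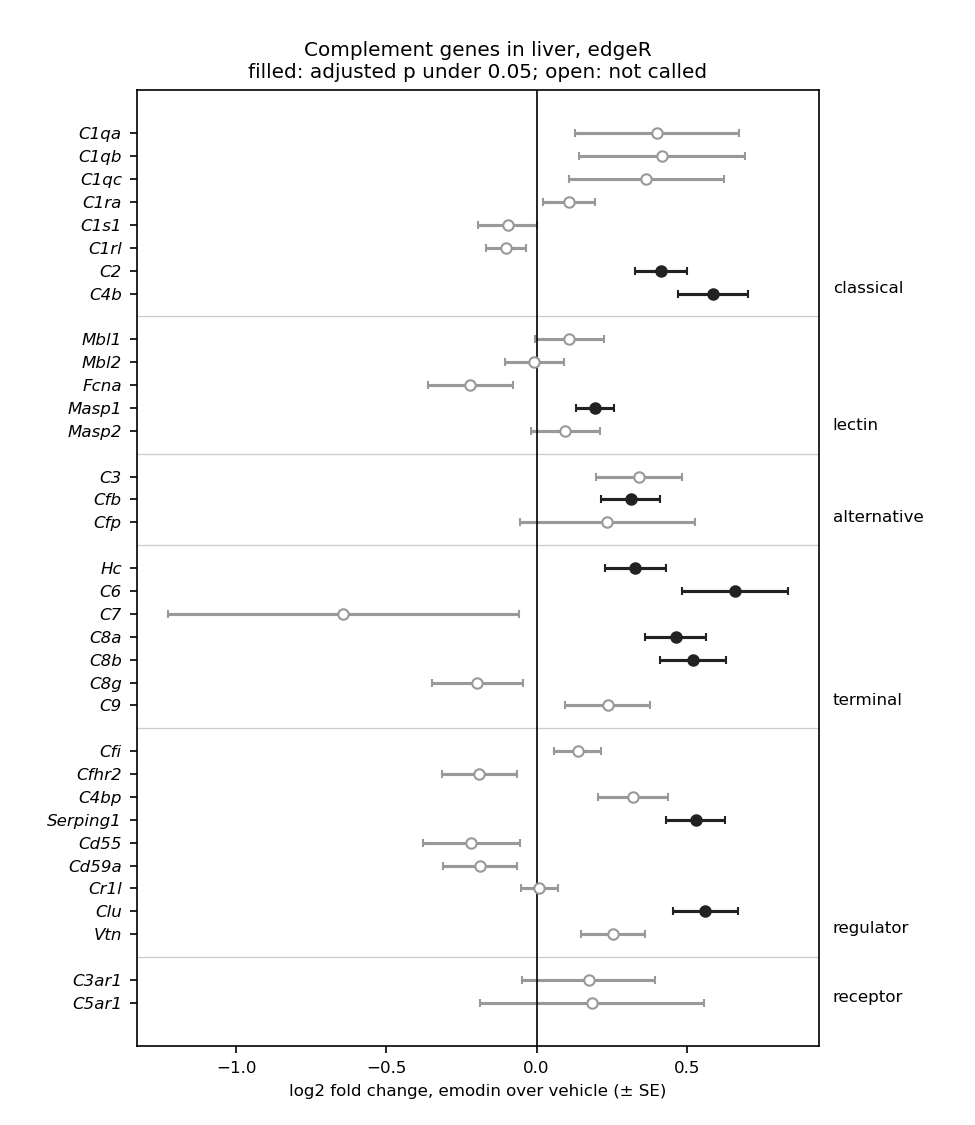
Log2 fold change of each tested complement gene, emodin over vehicle, with its SE as the bar, grouped by role. Filled points mark the 10 called genes, all to the right of 0; C7, at the lowest counts, has the widest bar.

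The upstream bases of the 3 C8 genes and of C3 are shown because C8a and C8b were called and C8g was not, and because C3 is the hub of the cascade. Each is the 250 bases before a RefSeq start on GRCm38.p6, 5′ to 3′ along the gene's strand, with capitals at the motifs described next. C8g has another RefSeq start, and the bases before it (chr2:25500507-25500756, minus strand) are not printed. C8a lies on the minus strand, chr4:104876399-104876648, C8b on the plus strand, chr4:104766067-104766316, C8g on the minus strand, chr2:25501720-25501969, and C3 on the minus strand, chr17:57228137-57228386.
C8a: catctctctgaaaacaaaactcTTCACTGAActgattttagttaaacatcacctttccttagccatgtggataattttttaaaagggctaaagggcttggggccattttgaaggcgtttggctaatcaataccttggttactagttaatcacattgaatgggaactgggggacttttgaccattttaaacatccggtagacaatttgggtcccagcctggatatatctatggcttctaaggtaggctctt
C8b: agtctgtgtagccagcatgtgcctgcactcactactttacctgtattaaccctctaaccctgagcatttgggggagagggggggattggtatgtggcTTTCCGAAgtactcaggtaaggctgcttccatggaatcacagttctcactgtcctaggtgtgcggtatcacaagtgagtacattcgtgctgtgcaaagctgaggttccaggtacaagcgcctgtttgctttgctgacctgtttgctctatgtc
C8g: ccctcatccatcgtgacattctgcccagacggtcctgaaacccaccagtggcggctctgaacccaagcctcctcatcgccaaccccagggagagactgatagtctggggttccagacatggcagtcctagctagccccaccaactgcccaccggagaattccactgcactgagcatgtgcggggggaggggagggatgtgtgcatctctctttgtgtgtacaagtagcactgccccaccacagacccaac
C3: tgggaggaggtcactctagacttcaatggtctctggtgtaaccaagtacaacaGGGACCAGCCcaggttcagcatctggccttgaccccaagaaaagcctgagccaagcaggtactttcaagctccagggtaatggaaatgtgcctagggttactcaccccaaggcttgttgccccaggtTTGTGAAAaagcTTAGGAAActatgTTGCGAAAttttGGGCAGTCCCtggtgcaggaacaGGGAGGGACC

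For reference, 4 motifs were searched on both strands in the RefSeq windows of 300 bases around gene starts (250 before and 50 after), which held 29 windows of 27 members. Of the 10 called genes, Hc, C6, C8a and C8b had a window, and C2, C4b, Masp1, Cfb, Serping1 and Clu had none in the table, so the shares describe mostly genes that were not called. The STAT motif TTCNNNGAA was in 6 of the 29 windows (20.7%) and in 8.30% of all 32851 windows; of the 6, that of C8a alone belonged to a called gene. The C/EBP motif TTNNGNAA was in 15 (51.7%) and in 40.7% of all. The interferon-stimulated response element was in 2 (6.90%) and in 3.44% of all, and the NF-κB motif in 6 (20.7%) and in 20.7% of all. In the bases printed, C8a held 1 STAT match (bases -228 to -220 from the start), C8b 1 C/EBP match (-153 to -146), and the printed C8g window none of the 4 motifs. C3 held 3 C/EBP matches (-70 to -63, -58 to -51 and -45 to -38) and 3 NF-κB matches (-197 to -188, -33 to -24 and -10 to -1). The motifs can overlap one another, and a match describes letters, not binding.

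The libraries held 28.3 to 48.2 M estimated counts in emodin livers and 28.7 to 38.6 M in vehicle livers (M, 1e6 counts). The 6 hepatocyte markers summed to 55451 to 104310 CPM in emodin livers and 96868 to 126460 CPM in vehicle livers, and 1 of them, Alb, was called lower (log2 fold change -0.50 ± 0.15 SE, edgeR adjusted p = 0.0309). These sums were mostly Alb, which had a mean of 59544 CPM in emodin livers and 84492 CPM in vehicle livers. The other 5 were not called (log2 fold changes of Ttr -0.23, Apoa1 -0.04, Cps1 -0.0049, Cyp2e1 -0.12 and Tat 0.14). Of the 10 macrophage markers 0 were called, 1 at an unadjusted p under 0.05, and their sums ran from 245 to 633 CPM in emodin livers and from 162 to 738 CPM in vehicle livers. Of the neutrophil list 3 of 8 markers could be tested and 0 were called, with sums of 2.42 to 7.56 CPM in emodin livers and 1.15 to 5.66 CPM in vehicle livers. In bulk liver, more cells of a type and more RNA per cell cannot be told apart. The part of these differences in the results on complement was not tested.

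The 35 members together took 1.92 ± 0.290% of the counts of emodin livers and 1.52 ± 0.0828% of those of vehicle livers (SD, n = 8 each). The share was 1.52% in emodin 1 and 1.59% in emodin 6, within the vehicle range of 1.40% to 1.66%, and from 1.78% to 2.38% in the other 6 emodin livers. C3 alone took 0.604 ± 0.157% in emodin livers and 0.463 ± 0.0504% in vehicle livers. Per kilobase of exon, C3 had the highest level of the members in both groups, 1155 ± 265 CPM per kb in emodin and 912 ± 119 CPM per kb in vehicle livers. Vtn was next with 910 ± 168 and 764 ± 36.5 CPM per kb in emodin and vehicle livers. Clu, which ranked 3 in emodin livers at 407 ± 78.1 CPM per kb, ranked 6 in vehicle livers at 276 ± 13.3 CPM per kb, where it lay within 1 SD of Cfb (288 ± 24.8). The lowest levels per kb in vehicle livers were those of C5ar1, Cfd and C7, from 0.360 down to 0.291 CPM per kb, and the SDs of these 3 genes overlapped.

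Among the classical components, C4b encodes mouse C4, which is cut by C1s and by MASP-2 and forms part of the C3 convertase. C4b had 808, 1049 and 1488 CPM (lowest, median and highest) in emodin livers and 641, 698 and 856 CPM in vehicle livers. Only emodin 1, the lowest, fell inside the vehicle range, and emodin 5 was the highest. C4b rose 1.5-fold (log2 fold change 0.59 ± 0.12 SE, edgeR adjusted p = 0.00501). C4a, its neighbour and close paralog, has no row, and how reads shared by the 2 genes were assigned is not given in the sources used here, so the value may hold reads of both.

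C2 encodes the protease part of the convertase that C4b joins. It had 92.4, 101 and 120 CPM in emodin livers and 62.4, 76.5 and 95.6 CPM in vehicle livers (lowest, median and highest). Emodin 7 and 8 lay inside the vehicle range, and the other 6 emodin livers were higher than any vehicle liver. C2 rose 1.33-fold (log2 fold change 0.41 ± 0.09 SE, edgeR adjusted p = 0.00687). Of its exon bases 42.8% are shared with Gm20547, a readthrough locus that also covers Cfb and held 16 counts over the emodin livers and 0 over the vehicle livers.

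The proteases of the C1 complex did not pass. C1ra, which encodes C1r, had 290 ± 34.2 CPM in emodin livers and 269 ± 23.5 CPM in vehicle livers (SD, n = 8 each; log2 fold change 0.11 ± 0.09 SE, edgeR adjusted p = 0.422). C1s1, which encodes C1s, had 479 ± 75.9 CPM in emodin livers and 512 ± 42.0 CPM in vehicle livers (-0.10 ± 0.10, edgeR adjusted p = 0.547). C1rl, a C1r-like protease gene, had 113 ± 9.58 and 121 ± 8.32 CPM in emodin and vehicle livers (-0.10 ± 0.07, edgeR adjusted p = 0.320). Close paralogs of C1ra and C1s1 exist in the mouse (C1rb and C1s2), so the values of these genes are uncertain one by one.

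The chains of C1q, the molecule that recognises antibody on a surface, were spread widely within both groups. C1qa had 21.5, 34.1 and 59.6 CPM in emodin livers and 14.5, 25.4 and 59.6 CPM in vehicle livers (lowest, median and highest), so the groups overlapped almost in full. The log2 fold changes of C1qa, C1qb and C1qc were 0.40 ± 0.27, 0.42 ± 0.28 and 0.37 ± 0.26 SE (edgeR adjusted p = 0.345, 0.330 and 0.365). Emodin 4 and 5 and vehicle 4 were the highest for each chain. The summed C1q level was 163, 175 and 172 CPM in those 3 livers, and their summed macrophage markers stood at 452, 633 and 738 CPM. In the other livers C1q summed to 65.6 to 121 CPM with emodin and to 42.6 to 89.1 CPM with vehicle, beside macrophage sums of 245 to 351 and 162 to 335 CPM. The part of macrophage content in the C1q values was not tested. Without vehicle 4 the 3 chains had log2 fold changes of 0.65, 0.65 and 0.59 and did not pass (edgeR adjusted p = 0.0741, 0.0848 and 0.0878). Without emodin 4 they were 0.30, 0.30 and 0.27 (edgeR adjusted p = 0.546, 0.542 and 0.563), and without emodin 5 they were 0.28, 0.29 and 0.24 (edgeR adjusted p = 0.539, 0.518 and 0.572).

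**Figure D2:**
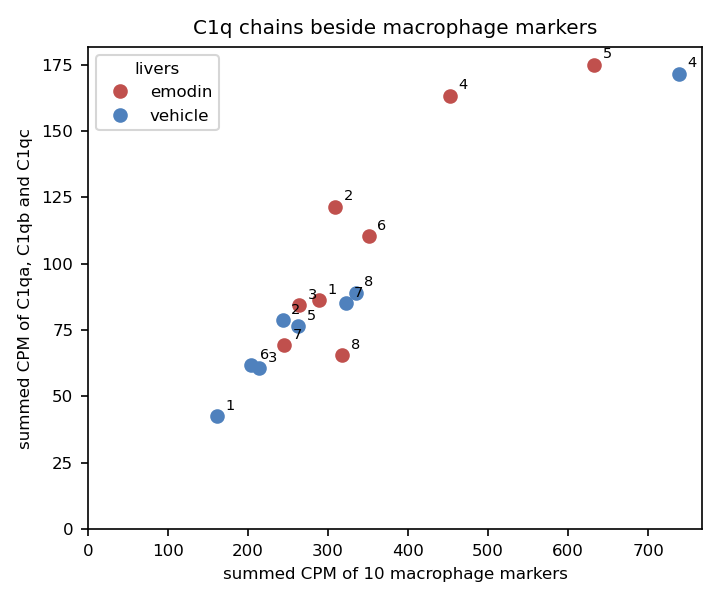
Summed CPM of C1qa, C1qb and C1qc against the summed CPM of 10 macrophage markers, 1 point per liver, numbered by replicate, emodin livers in red and vehicle livers in blue. Emodin 4 and 5 and vehicle 4 lie at the upper right, at 163 to 175 CPM of C1q.

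Of the lectin route, Masp1 alone passed, the gene of a protease that rides on mannose-binding lectin and ficolins. It had 163, 173 and 199 CPM in emodin livers and 139, 152 and 172 CPM in vehicle livers (lowest, median and highest). Emodin 3, 4, 5 and 8 exceeded every vehicle liver, emodin 8 the most, and the other 4 overlapped with vehicle. The rise was 1.14-fold (log2 fold change 0.19 ± 0.06 SE, edgeR adjusted p = 0.0482). The call was lost in 5 of 7 alternatives (0.16 to 0.20, adjusted p from 0.0563 to 0.0892 in edgeR or limma). With 1 liver left out it was lost in 12 of 16 fits, and kept only without emodin 1, 6 or 7 or vehicle 3 (where lost, 0.17 to 0.20, edgeR adjusted p from 0.0641 to 0.0861).

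Masp2, the gene of the protease that cuts C4 and C2, had 105, 143 and 183 CPM in emodin livers and 114, 139 and 147 CPM in vehicle livers (log2 fold change 0.10 ± 0.12 SE, edgeR adjusted p = 0.612). The emodin livers spread to both sides of the vehicle range, 3 above it and 2 below. Of its exon bases 54.9% overlap Tardbp on the opposite strand, and whether counting used strand is not given in the sources used here, so reads of the 2 genes may be mixed; Tardbp had a log2 fold change of -0.09 ± 0.08 SE (edgeR adjusted p = 0.468).

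The lectins themselves did not pass. Mbl1 and Mbl2, the mannose-binding lectins A and C, had 153 ± 30.9 and 367 ± 57.3 CPM in emodin livers against 142 ± 17.9 and 369 ± 34.2 CPM in vehicle livers (SD, n = 8 each; log2 fold changes 0.11 ± 0.12 and -0.01 ± 0.10 SE, edgeR adjusted p = 0.562 and 0.967). Fcna, the gene of ficolin A, a lectin made by macrophages of liver and spleen, had 23.6 ± 3.98 CPM in emodin livers and 27.5 ± 6.35 CPM in vehicle livers (-0.22 ± 0.14, edgeR adjusted p = 0.312).

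Of the alternative route, C3 was the most abundant member and did not pass. It had 3750, 6344 and 7438 CPM in emodin livers and 3728, 4848 and 5407 CPM in vehicle livers (lowest, median and highest). Emodin 2, 4, 5, 7 and 8 exceeded every vehicle liver, and emodin 1, 3 and 6 lay inside the vehicle range. The log2 fold change was 0.34 ± 0.14 SE (edgeR adjusted p = 0.122). Without emodin 1 it was 0.41 and passed (edgeR adjusted p = 0.0414), and with array weights it was 0.17.

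Cfb encodes factor B, which joins C3b in the alternative convertase. It had 760, 1022 and 1202 CPM in emodin livers and 685, 826 and 899 CPM in vehicle livers (lowest, median and highest). All emodin livers but 1 and 6 exceeded every vehicle liver. Cfb rose 1.24-fold (log2 fold change 0.31 ± 0.10 SE, edgeR adjusted p = 0.0419). The call was lost in 3 of 7 alternatives (0.21 to 0.32, adjusted p from 0.0600 to 0.113 in edgeR or limma). The lowest of these came with array weights. With 1 liver left out it was lost in 11 of 16 fits, and kept only without emodin 1, 3, 6 or 7 or vehicle 3 (where lost, 0.27 to 0.33, edgeR adjusted p from 0.0514 to 0.0790). Of its exon bases 79.5% are shared with the readthrough locus Gm20547.

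Cfp and Cfd, the genes of properdin, which stabilises the convertase, and of factor D, which cuts factor B, were low in liver. Cfp had 11.1, 19.2 and 34.3 CPM in emodin livers and 9.10, 14.1 and 38.9 CPM in vehicle livers (lowest, median and highest; log2 fold change 0.24 ± 0.29 SE, edgeR adjusted p = 0.626). Vehicle 4, the liver with the highest macrophage sum, was the highest for Cfp at 38.9 CPM. Without it the log2 fold change of Cfp was 0.53 (edgeR adjusted p = 0.140), and without emodin 5, the highest emodin liver, it was 0.08 (edgeR adjusted p = 0.882). Cfd, also called adipsin and made mainly by adipocytes, had too few counts for edgeR, 107 over the emodin livers and 77 over the vehicle livers. It had 0.394 ± 0.452 CPM in emodin livers and 0.295 ± 0.415 CPM in vehicle livers (SD, n = 8 each), which overlapped (exact permutation test, two-sided, p = 0.651). Of the 7 adipocyte markers, Lep was at 0 in all 16 livers, and Adipoq was at 0 in 7 of 8 emodin and 5 of 8 vehicle livers. Cidec of the same list, the gene of a lipid droplet protein, was called higher, with 8.06 ± 5.63 CPM in emodin livers and 2.30 ± 0.587 CPM in vehicle livers (SD, n = 8 each; log2 fold change 1.80 ± 0.36 SE, edgeR adjusted p = 0.00576, 7 of 8 emodin livers above all vehicle livers). The 7 markers summed to 7.62 to 27.3 CPM in emodin livers and 7.28 to 41.5 CPM in vehicle livers; their part in the Cfd values was not tested.

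The terminal route held 4 of the 10 calls. C6 had the largest fold change of the called members, and its product binds C5b as the attack complex begins to form. It had 152, 221 and 275 CPM in emodin livers and 66.6, 130 and 174 CPM in vehicle livers (lowest, median and highest). Emodin 1, 3, 4, 5 and 8 exceeded every vehicle liver, and emodin 2, 6 and 7 did not. C6 rose 1.58-fold (log2 fold change 0.66 ± 0.18 SE, edgeR adjusted p = 0.0224). With the replicate number as a block it did not pass (0.68, edgeR adjusted p = 0.0506).

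Hc, the gene of C5, whose cleavage starts the terminal route, had 725, 822 and 955 CPM in emodin livers and 500, 684 and 797 CPM in vehicle livers (lowest, median and highest). Emodin 3, 5, 6 and 7 exceeded every vehicle liver, and the other 4 overlapped. Hc rose 1.26-fold (log2 fold change 0.33 ± 0.10 SE, edgeR adjusted p = 0.0413). The call was lost in 2 of 7 alternatives (0.34 in both, edgeR adjusted p = 0.0559 and 0.0587). With 1 liver left out it was lost in 10 of 16 fits, and kept only without emodin 1, 2, 4 or 8 or vehicle 3 or 4 (where lost, 0.28 to 0.34, edgeR adjusted p from 0.0520 to 0.0734).

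C8 is built of alpha and beta chains, which insert into the membrane, and a gamma chain of the lipocalin family. C8a had 673, 821 and 998 CPM in emodin livers and 454, 612 and 716 CPM in vehicle livers (lowest, median and highest). C8b had 255, 339 and 394 CPM in emodin livers and 190, 220 and 280 CPM in vehicle livers. For both chains 7 of 8 emodin livers were above every vehicle liver, and emodin 7 was not. C8a rose 1.38-fold (log2 fold change 0.46 ± 0.10 SE, edgeR adjusted p = 0.00886) and C8b rose 1.43-fold (0.52 ± 0.11, edgeR adjusted p = 0.00692). C8a and C8b are neighbours on mouse chromosome 4.

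C8g, on chromosome 2, had 102, 209 and 253 CPM in emodin livers and 199, 218 and 263 CPM in vehicle livers (lowest, median and highest). Emodin 1, 4, 5 and 8 lay below every vehicle liver, with emodin 8 at 102 and emodin 4 at 143 CPM, and the other 4 lay within the vehicle range. The log2 fold change was -0.20 ± 0.15 SE (edgeR adjusted p = 0.403). The balance of the chains is given as their ratio within a liver. The pairs were chosen after the members' values had been seen, so these ratios are a description. The p-values computed for them are not reported here.

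The log2 ratio of C8a to C8g was 2.13 ± 0.51 in emodin livers and 1.42 ± 0.34 in vehicle livers (SD, n = 8 each), a difference of 0.72 ± 0.22 SE and 5 of 8 emodin livers exceeded every vehicle liver. That of C8b to C8g was 0.81 ± 0.46 in emodin livers and 0.04 ± 0.33 in vehicle livers, a difference of 0.77 ± 0.20 SE with 6 of 8 above. For C8a to C8b the difference was -0.05 ± 0.07 SE, and the groups overlapped. A ratio of 2 mRNAs within a liver does not depend on the scaling between livers. With each liver left out in turn the first 2 differences ran from 0.59 to 0.81 and from 0.67 to 0.87.

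**Figure D3:**
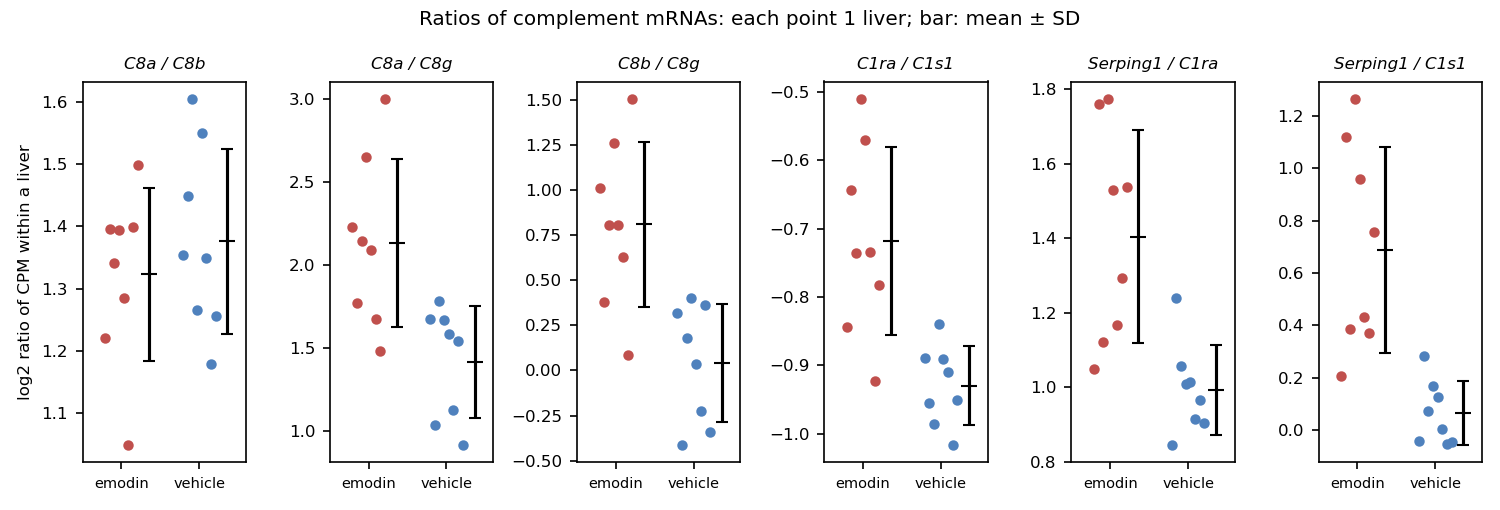
Log2 ratio of the CPM of 2 complement genes within a liver, 1 point per liver, emodin left and vehicle right in each panel, with the mean ± SD of 8 livers as the bar; the vertical scales differ. The ratios of C8a and C8b to C8g and of Serping1 to C1s1 lie mostly above the vehicle livers, and that of C8a to C8b overlaps.

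C9, the gene of the pore-forming subunit, had 391, 524 and 741 CPM in emodin livers and 296, 476 and 560 CPM in vehicle livers (log2 fold change 0.24 ± 0.14 SE, edgeR adjusted p = 0.273). Emodin 3, 6 and 7 exceeded every vehicle liver. C7, which binds C5b-6 and is made largely outside hepatocytes, was near the limit of detection, with 0.498 ± 0.411 CPM in emodin livers and 0.779 ± 0.765 CPM in vehicle livers (SD, n = 8 each; log2 fold change -0.64 ± 0.58 SE, edgeR adjusted p = 0.490). Its highest value, 2.54 CPM, was in vehicle 2, where the summed stellate cell and fibroblast markers were also the highest at 415 CPM. In vehicle 2 that sum held 141 CPM of Des alone, against a median of 3.11 CPM of Des in vehicle livers. Without that liver the log2 fold change of C7 was -0.08 (edgeR adjusted p = 0.947), and without emodin 7 it was -1.05.

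Among the regulators, Serping1 and Clu separated the groups in full. Serping1 encodes the C1 inhibitor, which blocks C1r, C1s and the MASPs. It had 620, 736 and 930 CPM in emodin livers and 482, 531 and 579 CPM in vehicle livers (lowest, median and highest), with all 8 emodin livers above all 8 vehicle livers. Serping1 rose 1.44-fold (log2 fold change 0.53 ± 0.10 SE, edgeR adjusted p = 0.00289).

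Clu encodes clusterin, a secreted chaperone that binds the forming attack complex in the fluid phase. It had 1033, 1375 and 1913 CPM in emodin livers and 894, 927 and 1008 CPM in vehicle livers (lowest, median and highest). Emodin 1, the lowest, was just above the highest vehicle liver, and emodin 4 was the highest. Clu rose 1.48-fold (log2 fold change 0.56 ± 0.11 SE, edgeR adjusted p = 0.00399). Complete separation upward was seen for these 2 of the 34 members and for 0.937% of all entries; downward it was seen for 0 members and 1.03% of all entries.

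The ratios of Serping1 to the C1 proteases are a description too, chosen because Serping1 was called and the proteases were not. The log2 ratio of Serping1 to C1s1 was 0.69 ± 0.39 in emodin livers and 0.06 ± 0.12 in vehicle livers (SD, n = 8 each), a difference of 0.62 ± 0.15 SE and 7 of 8 emodin livers exceeded every vehicle liver. That of Serping1 to C1ra differed by 0.41 ± 0.11 SE, with 5 of 8 above. The ratio of C1ra to C1s1 was higher as well, by 0.21 ± 0.05 SE, at -0.72 ± 0.14 in emodin livers and -0.93 ± 0.06 in vehicle livers (SD, n = 8 each), with 6 of 8 above. For the other 7 pairs computed, which were C8a to C8b, the 3 pairs of C1q chains, Masp1 to Masp2, Mbl1 to Mbl2 and Cfb to Cfi, the differences ran from -0.05 to 0.17.

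C4bp, the gene of C4b-binding protein, had the smallest p of the regulators that did not pass. It had 561, 626 and 976 CPM in emodin livers and 491, 560 and 614 CPM in vehicle livers (lowest, median and highest). Emodin 2, 3, 4, 5 and 8 exceeded every vehicle liver, emodin 8 and 4 the most, at 976 and 872 CPM. The log2 fold change was 0.32 ± 0.12 SE (edgeR adjusted p = 0.0744). It passed in DESeq2 (adjusted p = 0.0392) and without emodin 6 (0.37, edgeR adjusted p = 0.0455) or emodin 7 (0.36, edgeR adjusted p = 0.0495), and array weights gave 0.17.

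Vtn, the gene of vitronectin, which also blocks attack complex assembly in plasma, had 1848 ± 341 CPM in emodin livers and 1550 ± 74.1 CPM in vehicle livers (SD, n = 8 each; log2 fold change 0.25 ± 0.11 SE, edgeR adjusted p = 0.121). All emodin livers but 1 and 8 exceeded every vehicle liver, and emodin 1 was below all of them. Cfi, the gene of factor I, which cuts C3b and C4b, had 623 ± 49.9 and 567 ± 49.8 CPM in emodin and vehicle livers (0.14 ± 0.08, edgeR adjusted p = 0.259). Cfhr2, a gene of a family whose members resemble each other closely, had 595 ± 131 CPM in emodin livers and 679 ± 54.4 CPM in vehicle livers (-0.19 ± 0.13, edgeR adjusted p = 0.325), and reads may be shared within that family.

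The membrane-bound regulators were low and none passed. Cd55, which encodes decay-accelerating factor, had 14.1 ± 4.17 CPM in emodin livers and 16.4 ± 3.10 CPM in vehicle livers (SD, n = 8 each), with emodin 1, 3, 6 and 7 below every vehicle liver (log2 fold change -0.22 ± 0.16 SE, edgeR adjusted p = 0.390). Cd59a, which encodes a blocker of C9 insertion, had 43.4 ± 9.80 CPM in emodin livers and 49.4 ± 4.84 CPM in vehicle livers, lowest in emodin 8 at 26.9 CPM (-0.19 ± 0.12, edgeR adjusted p = 0.320). Cr1l, the gene of the rodent regulator Crry, had 40.9 ± 3.87 and 40.6 ± 1.80 CPM in emodin and vehicle livers (0.01 ± 0.06, edgeR adjusted p = 0.936).

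The receptor genes, which encode sensors of the fragments C3a and C5a on leukocytes, were at low levels. C3ar1 had 2.65 ± 0.789 CPM in emodin livers and 2.35 ± 0.859 CPM in vehicle livers (SD, n = 8 each; log2 fold change 0.17 ± 0.22 SE, edgeR adjusted p = 0.636). C5ar1 had 1.05 ± 0.717 and 0.925 ± 0.324 CPM in emodin and vehicle livers (0.18 ± 0.37, edgeR adjusted p = 0.781). Vehicle 4 and emodin 4, both high for macrophage markers, were the highest for C3ar1 at 4.02 and 3.97 CPM. The log2 fold change of C3ar1 was 0.33 without vehicle 4 and 0.06 without emodin 4 (edgeR adjusted p = 0.311 and 0.887). For C5ar1 emodin 4 was the highest at 2.48 CPM, while vehicle 4 had 1.07 CPM, less than vehicle 8 at 1.37 CPM. Without emodin 4 the log2 fold change of C5ar1 was -0.14 (edgeR adjusted p = 0.838), and with array weights it was -0.41.

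**Figure D4:**
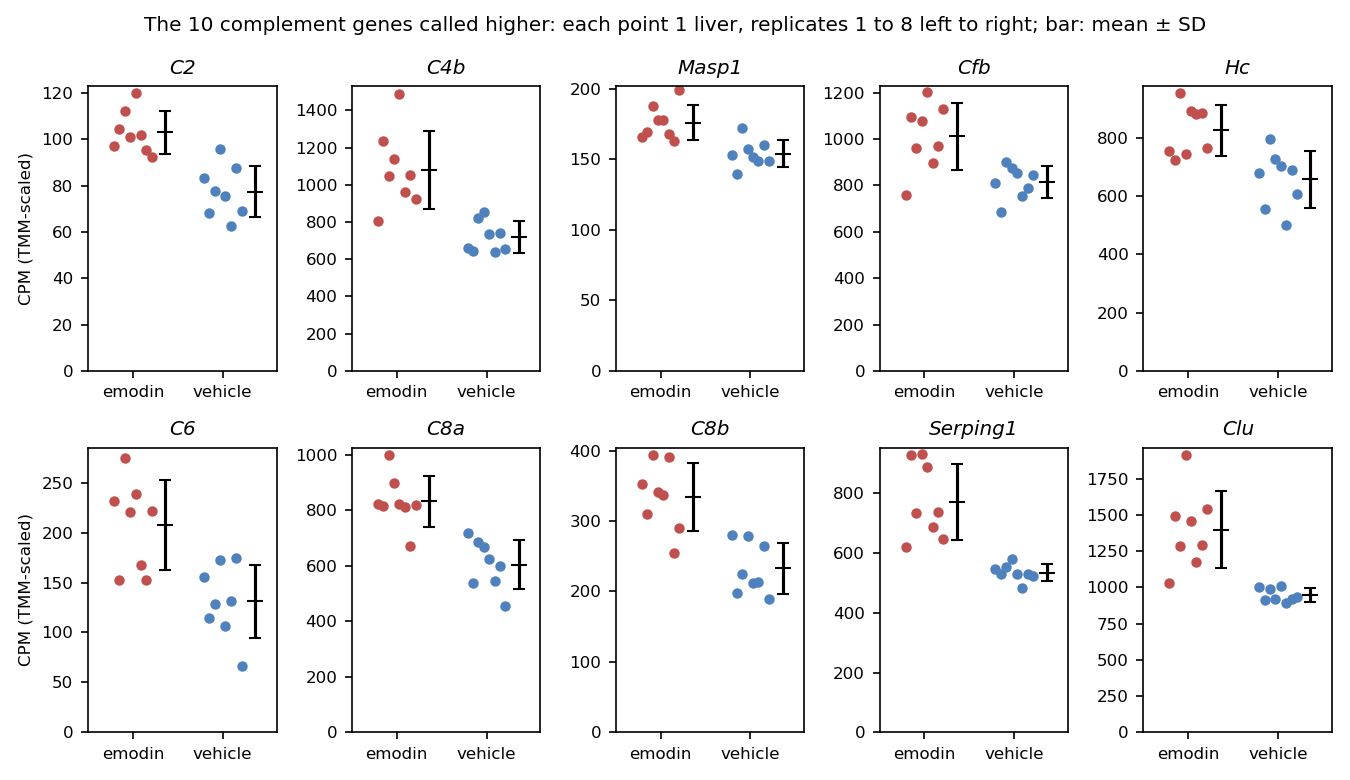
CPM of the 10 complement genes called higher, 1 point per liver with replicates 1 to 8 from left to right, emodin left and vehicle right, with the mean ± SD of 8 livers as the bar. Serping1 and Clu show no overlap between the groups, and the other 8 genes do.

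The levels of the members differed between emodin livers. Over the 34 tested members, the median log2 difference from the vehicle mean was 0.40 in emodin 4, 0.38 in emodin 5, 0.23 in emodin 3, 0.17 in emodin 2 and in emodin 6, 0.11 in emodin 7, 0.07 in emodin 1 and -0.03 in emodin 8. Among the 10 called genes, emodin 3 had the highest level for 4, emodin 5 for 3, emodin 4 for 2 and emodin 8 for 1, and the lowest emodin level was in emodin 1 for 4 and in emodin 7 for 4. Emodin 4 and 8 had the lowest 2 levels of the emodin livers for C1s1 (387 and 382 CPM), C8g (143 and 102 CPM), Cfhr2 (392 and 425 CPM), Cd59a (34.5 and 26.9 CPM) and Masp2 (105 and 109 CPM), and the highest 2 for Clu (1913 and 1542 CPM) and C4bp (872 and 976 CPM). Their hepatocyte markers, mostly Alb, summed to 55451 and 69584 CPM, the lowest of the 16 livers. Their 5 cholangiocyte markers summed to 173 and 118 CPM, against 33.6 to 47.7 CPM in the other emodin livers and 37.7 to 65.9 CPM in the vehicle livers. These sums were mostly Spp1, which reached 154 CPM in emodin livers, with Sox9 reaching 20.1 CPM. Krt7, Krt19 and Epcam of the same list reached only 0.873, 1.01 and 2.87 CPM in emodin livers. The part of either marker sum in the levels of the complement genes was not tested.

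The SD of log2 CPM was larger in emodin livers for 22 of the 34 members (64.7%), against 70.2% of all entries. The median ratio of emodin SD to vehicle SD was 1.5 over the members and 1.31 over all entries. The ratio was 3.92 for Clu, 3.74 for Vtn, 3.07 for Serping1 and 3.06 for C8g.

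**Figure D5:**
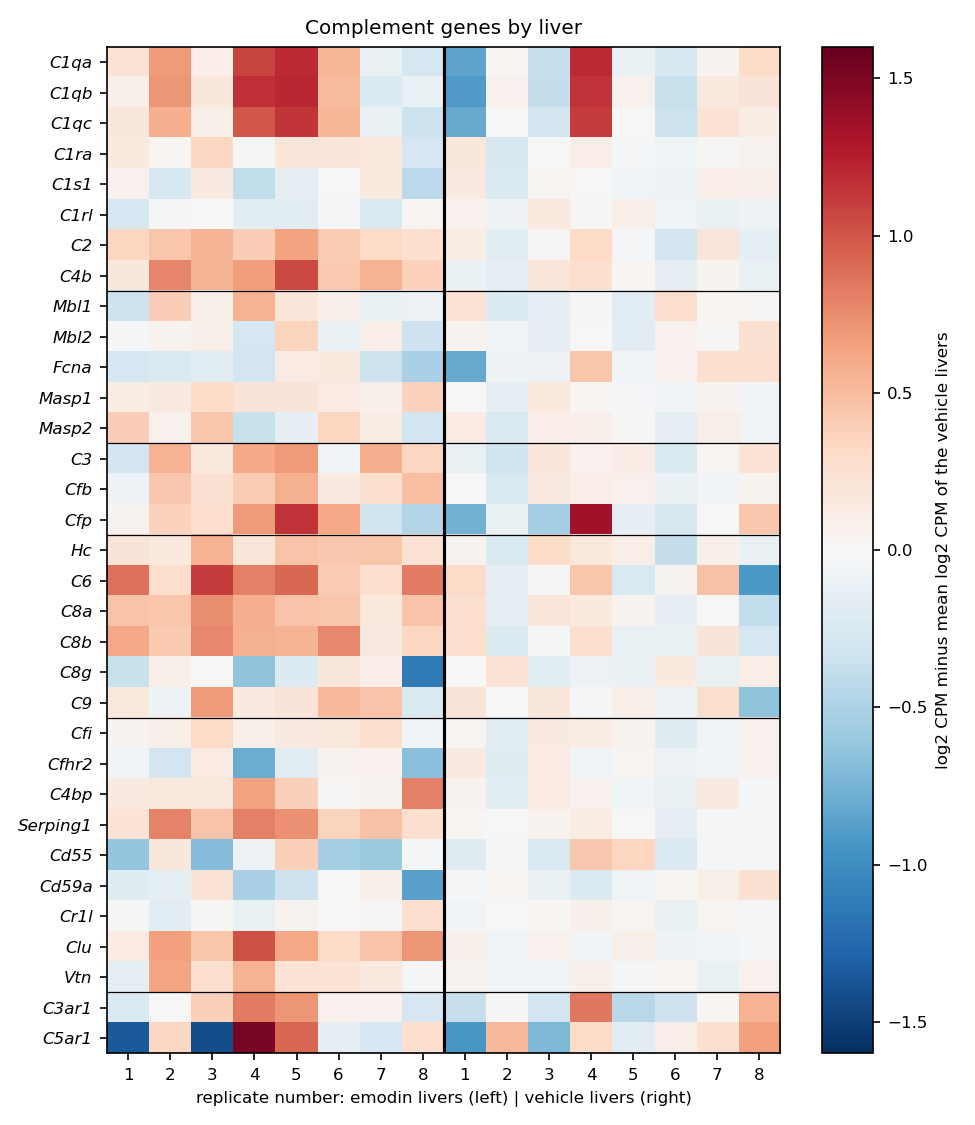
Log2 CPM of 33 complement genes minus their mean over the vehicle livers, with emodin livers 1 to 8 left of the line and vehicle livers 1 to 8 right of it; rows follow the roles in the text. C7 and Cfd, at 0 in some livers, are left out, and the bright C1q and Cfp cells are emodin 4 and 5 and vehicle 4.

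Of 23 further complement genes, 22 had a row and 19 could be tested. Of these, 1 was called higher and 0 lower, beside 7.70% of all entries higher and 5.47% lower. Their median log2 fold change was -0.03, and that of all entries was 0.01.

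Of 16 genes that control hepatic complement transcription or signal to it, 6 were called higher and 0 lower, with a median log2 fold change of 0.38. Over all entries 7.70% were called higher and 5.47% lower, with a median of 0.01. The 16 genes were listed with earlier results of these data known. Il1r1, the interleukin-1 receptor gene, had 133 ± 44.9 CPM in emodin livers and 56.8 ± 10.6 CPM in vehicle livers (SD, n = 8 each; log2 fold change 1.23 ± 0.19 SE, edgeR adjusted p = 0.000882). Socs3, which feeds back on interleukin-6 signalling, had 13.6 ± 6.53 and 4.68 ± 1.24 CPM in emodin and vehicle livers (1.54 ± 0.29, edgeR adjusted p = 0.00386). The transcription factor genes Stat3 and Cebpd rose by 0.60 ± 0.16 and 0.70 ± 0.19 (log2 ± SE, edgeR adjusted p = 0.0216 and 0.0245). Stat3 did not pass with array weights (0.46, limma adjusted p = 0.0791). Hnf4a and Nr1h4, which encode hepatocyte nuclear receptors, had 0.36 ± 0.12 and 0.01 ± 0.11 (edgeR adjusted p = 0.0607 and 0.952).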

How the data were processed

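RNA of 16 livers (8 emodin, 8 vehicle) was sequenced. The authors deposited estimated counts, whole numbers that are not scaled between libraries. The table's label names FPKM, so the unit rests on its values. HTSeq 0.6.1, Cufflinks 2.2.1, HISAT2, cutadapt 1.9.1 and SAMtools 0.1.19, with mm10, are named in the submitters' processing notes. Their roles, the counting rule and strand are not given in the sources used here. Entries were tested in edgeR 4.0.16 (R 4.3.3) with filterByExpr defaults, TMM scaling, robust dispersions and the quasi-likelihood F test on group, with Benjamini-Hochberg adjustment over 14308 entries. The SE is the absolute log2 fold change over the square root of F. Alternatives used DESeq2 1.42.0, limma 3.58.1 with array weights, other scalings and filters, and each liver left out. Members and lists were chosen with earlier results of these data known. All members were named; of the other lists, called genes were, except some not reported here (Hnf4a, Nr1h4, Alb and Cidec were added after values were seen). Exon lengths came from GENCODE M21 (GRCm38), promoters from RefSeq on GRCm38.p6. Code was tested on simulated data. Counts carry no molecular identifiers.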

Additional observations from a re-analysis of the deposited data

Results flagged for a closer look

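A liver stood apart from the other 7 of its group in 8 of the 72 sets of 8 values examined (35 members and their summed share, in each group), where the gap to the nearest liver was large against the range of the group. A chance rate of 1 in 20 would flag 3.6 sets here, but that rate assumes independent sets of normally distributed values. Genes measured in the same livers, such as the C1q chains, do not give independent sets, so 8 and 3.6 cannot be compared strictly. Vehicle 4 was the highest of its group for C1qa (59.6 CPM, next 31.9), C1qb (57.9, next 29.9), C1qc (54.1, next 29.2) and Cfp (38.9, next 20.8), and its macrophage markers summed to 738 CPM, against 162 to 335 CPM in the other vehicle livers. Vehicle 2 was the highest for Cfd (1.27 CPM, next 0.401) and C7 (2.54, next 0.922), and had the highest adipocyte and stellate cell sums (41.5 and 415 CPM). Those sums held 36.8 CPM of Fabp4 and 141 CPM of Des, against medians of 6.81 and 3.11 CPM in vehicle livers. Emodin 7 was the highest of its group for C7 (1.41 CPM, next 0.603), with a stellate cell sum of 275 CPM, also the highest of its group. Vehicle 8 was the lowest for C9 (296 CPM, next 436). The part of the marker sums in these values was not tested.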

How the results depend on the processing

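The count of members called higher was 10. It was 9 with DESeq2 size factors, 10 with scaling factors from all but the 50 most abundant entries, 11 in DESeq2, 8 with array weights, 7 without a filter, 9 with annotated genes only, and 7 to 11 with 1 liver left out. The replicate number as a block gave 6, and Masp1, Cfb, Hc and C6 (edgeR adjusted p = 0.0506) then lost their call. Whether the numbers pair the livers cannot be told from these values. The correlation of deviations between livers of one number ran from -0.149 to 0.245, and 2 of 8 emodin livers correlated best with the vehicle liver of their own number. The cause of these lost calls was not tested. No member was called lower in any of the 23 settings, and the median of the members ran from 0.16 to 0.27. The called entries of the whole table numbered 1884, 1263 with the block, and 1246 to 2200 with 1 liver left out, lowest without emodin 4. Higher and lower calls were 1102 and 782, 921 and 843 with array weights, and 628 and 635 with the block. The sign of small changes turned with array weights for Mbl2 (0.016), Cr1l (-0.013) and C5ar1 (-0.41), and with annotated genes only for Cr1l (-0.0012). With 1 liver left out, Mbl2 ran from -0.067 to 0.037, Cr1l from -0.031 to 0.035, C5ar1 from -0.14 to 0.33 and the log2 ratio of C1qa to C1qb from -0.034 to 0.013. The rise in the members' share of counts was 0.403 percentage points, 0.421 with annotated genes only and 0.337 to 0.461 with 1 liver left out. C7, C5ar1 and Cfd rest on few counts, so differences in them were not detectable at this depth unless large. C3ar1 held 821 counts over the emodin livers and 602 over the vehicle livers. Its SE was 0.22, beside 0.27 for C1qa. The 12 ratios and the alternatives for genes of other lists were chosen after the data were seen.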
